A study of Mus musculus with 9 samples.

Results

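The genes described here are 10 markers of retinal microglia and of the complement proteins these cells make, namely C1qa, C1qb, C1qc, Cx3cr1, Csf1r, P2ry12, Tmem119, Aif1, Trem2 and Tyrobp. They were chosen by gene symbol, each symbol was found once in the gene table of every library, and together they are 10 of 25239 gene names. The libraries were made from a mouse line in which CRISPR/Cas9 placed P2A-CreERT2, a self-cleaving peptide followed by a Cre recombinase that acts only when tamoxifen is bound, in frame at the C-terminus of RBPMS, an RNA-binding protein of retinal ganglion cells (RGCs). Wild type (+/+), heterozygous (Rbpms-CreERT2/+, written Cre/+) and homozygous (Rbpms-CreERT2/CreERT2, written Cre/Cre) mice on the C57BL/6J background were compared at P42, which is 42 days of age, with 3 libraries per genotype. Each library held poly(A) RNA from the pair of retinas of 1 mouse. CreERT2 was made from the Rbpms locus itself, and no tamoxifen is stated for these animals. The question this comparison addresses is whether 1 or 2 knock-in alleles alter gene expression in the retina. For the genes described here it asks whether the microglial and C1q transcripts stay at their wild type level.

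Microglia are the resident macrophages of the retina, and in the healthy adult their cell bodies lie mainly in the plexiform layers with processes that survey the tissue. C1q is the recognition molecule that starts the classical complement pathway. It is built from the A, B and C chains encoded by C1qa, C1qb and C1qc, it is made in the nervous system mainly by microglia, and it marks synapses for removal in the developing visual system. When RGCs or photoreceptors are injured, microglia multiply, retract their processes and change their gene expression, so these transcripts are widely read as a sign of retinal stress. In whole retina, fewer cells of a type and less RNA per cell cannot be told apart.

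The deposited values are TPM, a transcript level corrected for transcript length and scaled to a sum of 1000000 per library. The aligned bases implied by the coverage of the genes came to 4.05 to 4.65 Gb per library. Rbpms, the targeted gene, followed the labels, with 38.4 to 43.4 TPM in +/+, 31.3 to 33.1 TPM in Cre/+ and 19.1 to 24.2 TPM in Cre/Cre. All 12 genes of a list of retinal cell markers averaged 1 TPM or more. Cre/Cre replicate 1 held 9.21% of its TPM in the ribosomal RNA Rn45s, against 0.0827% to 0.336% elsewhere, which lowers the TPM of all its other genes by about that share. Xist, which female cells transcribe from the inactive X chromosome, was at 3.16 TPM or less in Cre/+ replicate 3, Cre/Cre replicate 1 and Cre/Cre replicate 3 and at 515.9 TPM or more in the other 6, so the animals' sexes were not spread evenly over the genotypes. Lens transcripts summed to 160.4 to 209.6 TPM in +/+, 15.8 to 175.8 TPM in Cre/+ and 81.9 to 1059 TPM in Cre/Cre.

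No difference between genotypes passed the test for any of the 10 genes, and their summed levels were close to wild type in both. Their summed level was 51.7 ± 2.84 TPM in +/+, 49.9 ± 4.99 TPM in Cre/+ and 50.6 ± 4.52 TPM in Cre/Cre (SD, n = 3 each), so that Cre/+ stood at 96.4% and Cre/Cre at 97.9% of the wild type sum. By library the sum was 50.0, 55.0 and 50.2 TPM in +/+, 51.7, 53.7 and 44.2 TPM in Cre/+ and 46.6, 55.5 and 49.8 TPM in Cre/Cre. The 3 genotypes overlapped. The 3 lowest sums were those of the libraries low in Xist, namely Cre/+ replicate 3, Cre/Cre replicate 1 and Cre/Cre replicate 3. The last of these, at 49.8 TPM, lay close to the next library at 50.0 TPM. The part of sex in the sums was not tested. Over all 9 libraries the sum had a coefficient of variation (CV, the SD as a percentage of the mean) of 7.38%, and the C1q chains made up 48.3% to 57.2% of it.

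**Figure D1:**
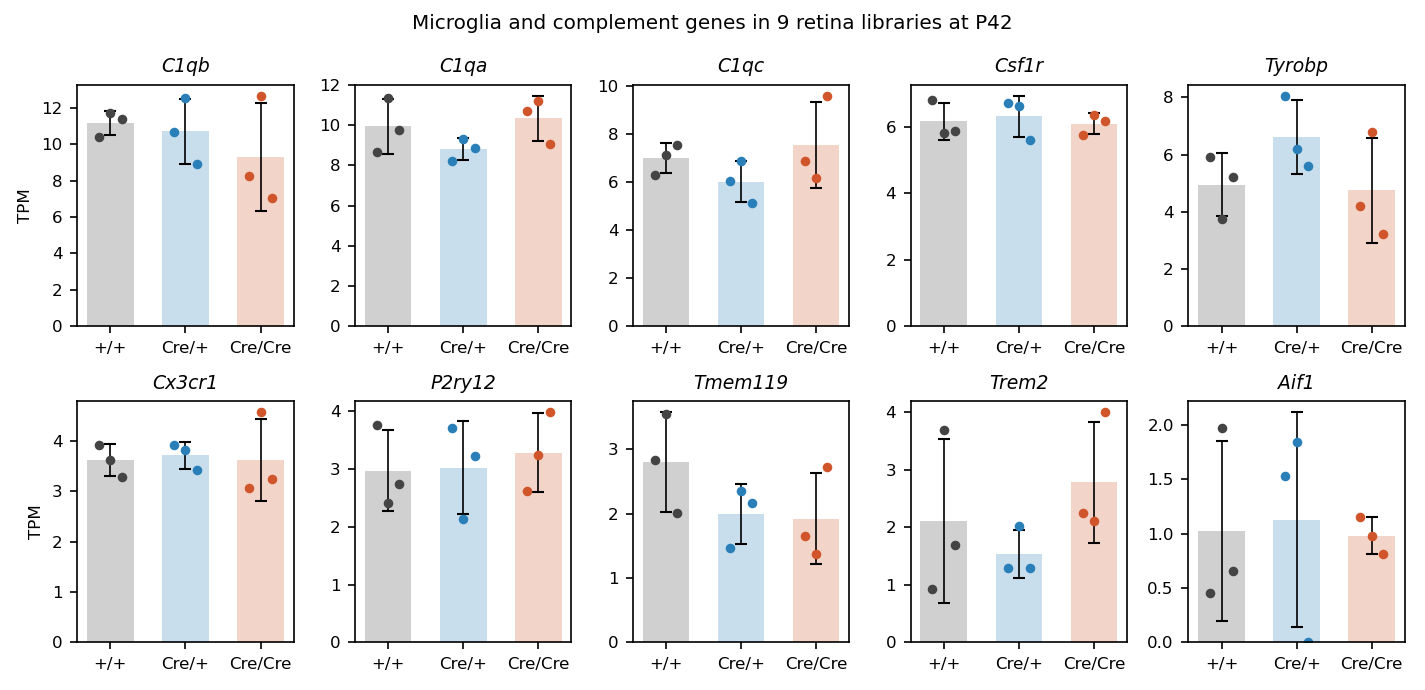
Level of each of the 10 genes in TPM (vertical axis, from 0 and with its own range in each panel) for +/+, Cre/+ and Cre/Cre. Points are the 3 libraries of a genotype in the order of their replicate numbers, bars their mean and lines their SD. The genotypes overlap in every panel apart from Trem2, where the Cre/Cre points lie above the Cre/+ points, and Aif1 includes 1 Cre/+ library at 0.

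By mean TPM over the 9 libraries, C1qb, C1qa and C1qc came first in the set. C1qc stood above the next gene, Csf1r, in only 5 of 9 libraries (exact sign-flip permutation test, adjusted p = 0.246). The C1q genes lie side by side on the minus strand of chromosome 4 (mm10), where C1qb spans chr4:136880126-136886200, C1qc chr4:136889802-136892914 and C1qa chr4:136895916-136898844. The starts of C1qb and C1qc are shown here because these neighbouring genes had the chain shares that spread most between the Cre/Cre libraries (SD 8.47 percentage points for C1qc and 7.56 for C1qb, against 3.14 for C1qa). The windows hold the 250 bases upstream of the annotated start (RefSeq, GRCm38.p6, minus strand), at chr4:136886201-136886450 for C1qb and chr4:136892915-136893164 for C1qc. Capitals mark GAGGAA, or its reverse complement TTCCTC, which is a core recognised by PU.1, the transcription factor that macrophages and microglia require.
C1qb: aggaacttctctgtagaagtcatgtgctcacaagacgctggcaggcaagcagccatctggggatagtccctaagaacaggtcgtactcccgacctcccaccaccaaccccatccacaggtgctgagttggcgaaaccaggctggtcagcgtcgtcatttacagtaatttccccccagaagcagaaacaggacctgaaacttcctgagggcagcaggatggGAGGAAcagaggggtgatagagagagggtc
C1qc: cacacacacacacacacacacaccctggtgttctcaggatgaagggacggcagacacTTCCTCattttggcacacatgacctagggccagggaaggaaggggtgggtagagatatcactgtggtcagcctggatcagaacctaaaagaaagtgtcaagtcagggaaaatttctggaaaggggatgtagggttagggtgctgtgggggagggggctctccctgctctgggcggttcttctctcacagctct
The 6 letters were searched on both strands as the sole motif, so no overlap with another motif arises. Of the 6 genes whose windows were searched, 4 held it, while Cx3cr1 and P2ry12 did not. Read in the direction of each gene, as the sequences above are printed, it lay on the forward strand in C1qb and on the reverse strand in C1qc, Aif1 and Trem2. Csf1r was left out of this search, and C1qa, Tmem119 and Tyrobp had no window. Of all 32851 windows of this length, 23.3% held it. A match of letters is a description of the sequence and not a bound site.

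C1qa, the A chain, was at 8.67, 11.4 and 9.78 TPM in +/+, at 8.24, 9.31 and 8.88 TPM in Cre/+ and at 10.7, 11.2 and 9.08 TPM in Cre/Cre. All 3 genotypes overlapped, and the highest library was wild type. On the log2(TPM + 1) scale, on which all differences below are given, C1qa differed by -0.15 (SE 0.13, adjusted p = 0.675) in Cre/+ and by 0.05 (SE 0.13, adjusted p = 0.979) in Cre/Cre against +/+. C1qb, the B chain, was at 10.4, 11.7 and 11.4 TPM in +/+, at 10.7, 12.5 and 8.91 TPM in Cre/+ and at 8.24, 12.7 and 7.04 TPM in Cre/Cre. Its Cre/Cre libraries held both the highest value of all 9 and the pair of lowest values. The mean of Cre/Cre was 83.4% of wild type, and the fitted difference was -0.27 (SE 0.18, 95% interval -0.65 to 0.10, adjusted p = 0.829).

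The 3 libraries low in Xist were the 3 lowest for C1qb, at 7.04 to 8.91 TPM against 10.4 to 12.7 TPM in the other 6. With Xist as a covariate the Cre/Cre difference of C1qb became 0.06. No other of the 10 genes was lowest, and none highest, in all 3 of these libraries, an arrangement that 2.92% of the genes tested showed in one direction or the other. The part of sex in the C1qb values was not tested. C1qc, the C chain, was at 6.30, 7.13 and 7.54 TPM in +/+, at 6.05, 6.86 and 5.13 TPM in Cre/+ and at 6.89, 6.17 and 9.57 TPM in Cre/Cre. It was highest in Cre/Cre replicate 3, the library in which C1qb was lowest, and its fitted differences were -0.19 (SE 0.16, adjusted p = 0.667) in Cre/+ and 0.08 (SE 0.16, adjusted p = 0.971) in Cre/Cre.

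Since the C1q molecule takes up its chains in equal number, the share of each chain in their summed TPM was compared within libraries, which removes the scaling of the library. C1qa made up 36.0% on average (range 32.4% to 41.5%), C1qb 38.5% (27.4% to 43.7%) and C1qc 25.5% (20.5% to 37.3%). The C1qb share was 41.0%, 38.7% and 39.6% in +/+, 42.7%, 43.7% and 38.9% in Cre/+ and 31.9%, 42.1% and 27.4% in Cre/Cre. Cre/Cre replicates 1 and 3 stood below the other 7 libraries, while Cre/Cre replicate 2 lay among the Cre/+ values. In the two-sided exact permutation test over all 1680 arrangements of the genotypes, no share passed the threshold, with p = 0.157 for C1qb, p = 0.4 for C1qa and p = 0.654 for C1qc (n = 3 per genotype, adjusted p = 0.533, 0.533 and 0.654 over the 4 ratios tested).

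The C1qb and C1qc shares changed when single Cre/Cre libraries were left out. Without Cre/Cre replicate 2, the C1qb share of Cre/Cre stood at -10.2 percentage points from that of +/+ and the C1qc share at 7.05 percentage points. The unadjusted exact permutation p over the 3 genotypes together was 0.0107 for each share, which does not test Cre/Cre against +/+ alone. The shares of a library add up to a whole, so these results are not independent. The Cre/Cre libraries that then remain are both low in Xist and all 3 +/+ libraries are high in it, so genotype and sex cannot be told apart in these values. Without Cre/Cre replicate 3, the C1qc share of Cre/Cre stood on the other side of wild type, at -1.32 percentage points. The exact permutation p over the 3 genotypes together was then 0.739. The levels of C1qb and C1qc had a Pearson r of -0.365 (exact permutation p = 0.337) and a Spearman coefficient of -0.183 (exact permutation p = 0.644) over the 9 libraries. Without Cre/Cre replicates 1 and 3, the farthest from the median of C1qb, r was 0.69, so the sign rested on those libraries. C1qa and C1qb had r = 0.274 (exact permutation p = 0.471) and a Spearman coefficient of 0.433 (exact permutation p = 0.25), with r = -0.192 without the 2 farthest libraries. C1qa and C1qc had r = 0.143 (exact permutation p = 0.724), a Spearman coefficient of 0.433 (exact permutation p = 0.25) and r = 0.304 without the same libraries. Adjusted over the 4 pairs tested, these 3 Pearson p-values were 0.628, 0.628 and 0.724, and those of Spearman were 0.644, 0.333 and 0.333.

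**Figure D2:**
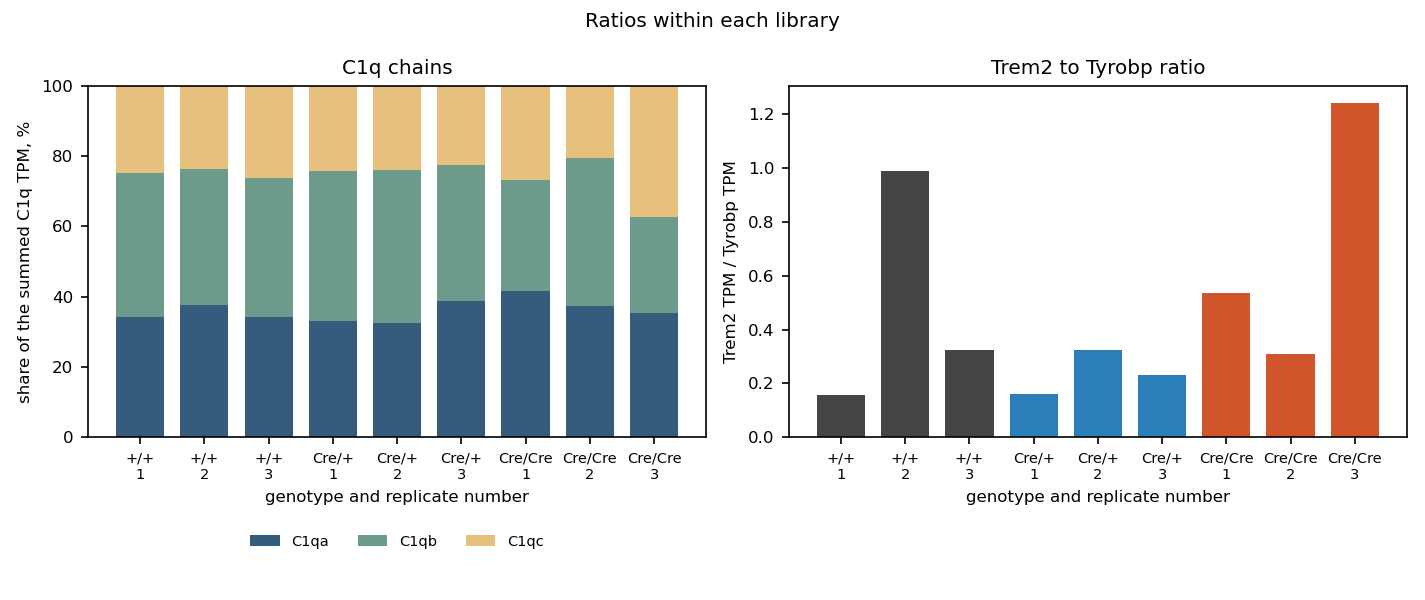
Left, share of each C1q chain in the summed C1q TPM (vertical axis, percent) in each of the 9 libraries. Right, Trem2 TPM divided by Tyrobp TPM in the same libraries. The C1qb share drops to 31.9% and 27.4% in Cre/Cre replicates 1 and 3, and the ratio runs from 0.157 to 1.24 with the highest bars in Cre/Cre replicate 3 and +/+ replicate 2.

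Of the receptors by which microglia are kept alive and held at rest, Csf1r was the steadiest gene of the set. Csf1r, at chr18:61105572-61131139 on the plus strand, encodes the receptor for CSF1 and IL-34 on which microglia depend for survival. Its level was 6.82, 5.82 and 5.89 TPM in +/+, 6.72, 6.63 and 5.61 TPM in Cre/+ and 5.76, 6.38 and 6.17 TPM in Cre/Cre. These 9 values spread over a CV of 7.32%, the smallest of the 10 genes, and the fitted differences were 0.03 (SE 0.14, adjusted p = 0.957) in Cre/+ and -0.01 (SE 0.14, adjusted p = 0.996) in Cre/Cre. Cx3cr1, at chr9:120048683-120068296 on the minus strand, encodes the receptor for fractalkine, the neuronal ligand encoded by Cx3cl1. It was at 3.93, 3.63 and 3.29 TPM in +/+, at 3.91, 3.83 and 3.42 TPM in Cre/+ and at 3.06, 4.57 and 3.25 TPM in Cre/Cre. Both its lowest and its highest library were Cre/Cre, and the fitted differences were 0.03 (SE 0.17, adjusted p = 0.960) and -0.01 (SE 0.17, adjusted p = 0.997).

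P2ry12, at chr3:59216271-59262985 on the minus strand, encodes the ADP receptor that guides microglial processes to damage and is lost when the cells leave the resting state. It was at 3.76, 2.42 and 2.74 TPM in +/+, at 3.71, 2.14 and 3.22 TPM in Cre/+ and at 2.62, 3.25 and 3.98 TPM in Cre/Cre. Each genotype spanned nearly the same range, and the differences were 0.01 (SE 0.21, adjusted p = 0.991) and 0.11 (SE 0.21, adjusted p = 0.966). Tmem119, at chr5:113793729-113800396 on the minus strand, encodes a membrane protein used to tell microglia from blood-derived macrophages. Its values were 2.83, 3.56 and 2.01 TPM in +/+, 1.47, 2.36 and 2.16 TPM in Cre/+ and 1.66, 1.38 and 2.73 TPM in Cre/Cre. The means of Cre/+ and Cre/Cre were 71.3% and 68.6% of wild type, and the genotypes overlapped through +/+ replicate 3. The difference was -0.33 (SE 0.23, 95% interval -0.82 to 0.15, adjusted p = 0.587) in Cre/+ and -0.39 (SE 0.23, 95% interval -0.87 to 0.10, adjusted p = 0.809) in Cre/Cre.

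Aif1, at chr17:35170986-35176052 on the minus strand, encodes the actin-binding protein IBA1, the antigen most used to stain microglia. It was the lowest of the set, at 0.452, 1.98 and 0.654 TPM in +/+, at 1.54 and 1.85 TPM and listed at 0 in Cre/+, and at 1.15, 0.979 and 0.816 TPM in Cre/Cre. Its coverage was at most 2.74 reads per base, and its fitted differences were 0.00 (SE 0.37, adjusted p = 0.999) and 0.04 (SE 0.37, adjusted p = 0.995). Both a doubling and a halving of its wild type mean lay inside the 95% intervals.

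TREM2 is the lipid-sensing receptor that drives the disease-associated state of microglia, and TYROBP (DAP12) is the adaptor through which it signals. Trem2, at chr17:48346401-48352276 on the plus strand, was at 0.929, 3.69 and 1.69 TPM in +/+, at 1.30, 2.01 and 1.30 TPM in Cre/+ and at 2.25, 2.10 and 3.99 TPM in Cre/Cre. The Cre/Cre libraries all stood above the Cre/+ libraries, and the wild type libraries spanned both. Trem2 differed by -0.21 (SE 0.29, 95% interval -0.83 to 0.42, adjusted p = 0.820) in Cre/+, by 0.35 (SE 0.29, 95% interval -0.28 to 0.98, adjusted p = 0.886) in Cre/Cre against +/+ and by 0.55 (SE 0.29, 95% interval -0.07 to 1.18, adjusted p = 0.740) between Cre/Cre and Cre/+. Tyrobp, at chr7:30413782-30417579 on the plus strand, was at 5.91, 3.73 and 5.20 TPM in +/+, at 8.05, 6.19 and 5.58 TPM in Cre/+ and at 4.21, 6.80 and 3.21 TPM in Cre/Cre. Its mean in Cre/+ was 134% of wild type, although the ranges met. The differences of Tyrobp were 0.36 (SE 0.22, 95% interval -0.11 to 0.83, adjusted p = 0.551) in Cre/+, -0.08 (SE 0.22, adjusted p = 0.980) in Cre/Cre and -0.44 (SE 0.22, 95% interval -0.91 to 0.03, adjusted p = 0.740) between Cre/Cre and Cre/+.

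The levels of receptor and adaptor were set against each other within libraries. The ratio of Trem2 to Tyrobp was 0.157, 0.991 and 0.325 in +/+, 0.161, 0.325 and 0.232 in Cre/+ and 0.535, 0.309 and 1.24 in Cre/Cre, a 7.91-fold range. Its difference between genotypes did not pass the threshold (exact permutation p = 0.354, adjusted p = 0.533, n = 3 each). Over the 9 libraries the levels had r = -0.777 (exact permutation p = 0.0148, adjusted p = 0.0592 over the 4 pairs) and a Spearman coefficient of -0.683 (exact permutation p = 0.0503, adjusted p = 0.201). The value of r was -0.723 without +/+ replicate 1 and Cre/Cre replicate 3, the 2 farthest from the median of Trem2, and -0.784 without Cre/Cre replicate 1. Among all 45 pairs of the 10 genes this was the lowest r, the highest was 0.73 for C1qc and Trem2, the median was 0.0486, and 25 pairs were above 0. These are the 2 genes that rest on the fewest reads among those that could be assessed, as the next comparison shows.

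The reads behind each gene limit what could be seen. From coverage and transcript length, 8 of the 10 genes could be given an approximate number of fragments (300 aligned bases each). The range over libraries was 42 to 72.1 for Cx3cr1, 38.4 to 56.9 for C1qa, 32.4 to 59.7 for C1qb, 21.9 to 42.7 for P2ry12, 21.6 to 42.1 for C1qc, 12.3 to 34.9 for Tmem119, 7.7 to 20.7 for Tyrobp and 4.4 to 18.7 for Trem2. The spread within genotypes was 11% of the mean for C1qa, where counting alone gives 15.2%. It was 17.6% against 18.3% for C1qc, 26.7% against 27.8% for Tyrobp and 14.5% against 13.2% for Cx3cr1. The spread was farthest above counting error in Trem2, at 49.1% against 31.8%, a ratio of 1.54, and in 7 of the 8 genes it was at most 1.5 times counting error.

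**Figure D3:**
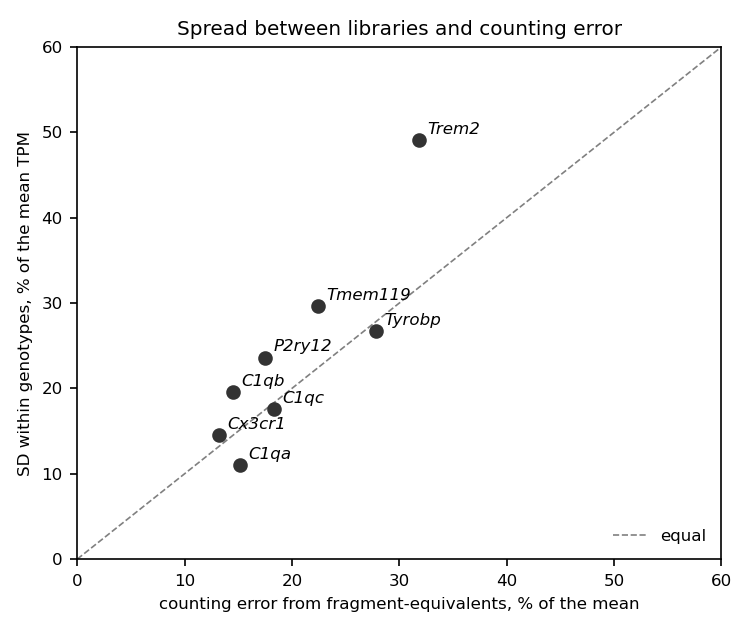
SD within genotypes as a percentage of the mean TPM (vertical axis) against the counting error expected from the approximate number of fragments, also as a percentage of the mean (horizontal axis), for the 8 genes with such a number. The dashed line marks equality. Points lie close to it for C1qa, C1qc, Cx3cr1 and Tyrobp, and Trem2 lies highest at 49.1% against 31.8%.

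Across all 15198 genes tested, the adjusted p of limma was at most 0.05 in 0.00658% of genes for Cre/+ against +/+, in 0.00658% for Cre/Cre against +/+ and in 0.0132% for Cre/Cre against Cre/+. The corresponding count among the 10 genes was 0 in each. A slope over 0, 1 and 2 knock-in alleles was called in 0.00658% of all genes and again in 0 of the 10. Without adjustment, p was under 0.05 in 10.7%, 6.97% and 6.58% of all genes in these contrasts and in 6.24% for the slope, while 0 of the 10 genes passed in each of them. The lowest unadjusted p among the 10 genes was 0.123 in Cre/+ and 0.0636 between Cre/Cre and Cre/+, for Tyrobp both times (limma), and 0.106 for the slope, for Tmem119.

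In each contrast 5 of the 10 differences were above 0 and 5 below. Their median was -0.03 in Cre/+, 0.01 in Cre/Cre and -0.00 between Cre/Cre and Cre/+, beside medians of 0.00, -0.02 and -0.03 over all genes tested. Genotypes did not overlap in 22.2%, 10.8% and 12% of all genes in the same 3 contrasts, and in 0, 0 and 1 of the 10, the last being Trem2 between Cre/Cre and Cre/+. For comparison, the fitted difference of Rbpms was -0.36 (SE 0.10, adjusted p = 0.355) in Cre/+ and -0.96 (SE 0.10, adjusted p = 0.000581) in Cre/Cre.

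The intervals set how large a change these values allow. For 7 of the 10 genes, both a doubling and a halving of the wild type mean lay outside the 95% interval in Cre/+, and the same held for 7 of 10 in Cre/Cre. C1qa, C1qb, C1qc, Csf1r, Cx3cr1, P2ry12 and Tyrobp were the 7 in both. In Cre/Cre, for example, the interval of Csf1r ran from -0.31 to 0.28, where a doubling is 0.90 and a halving -0.81. A halving of Tmem119 (-0.66) stayed inside both intervals, either change of Aif1 stayed inside both, and Trem2 could have halved in Cre/+ or doubled in Cre/Cre.

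**Figure D4:**
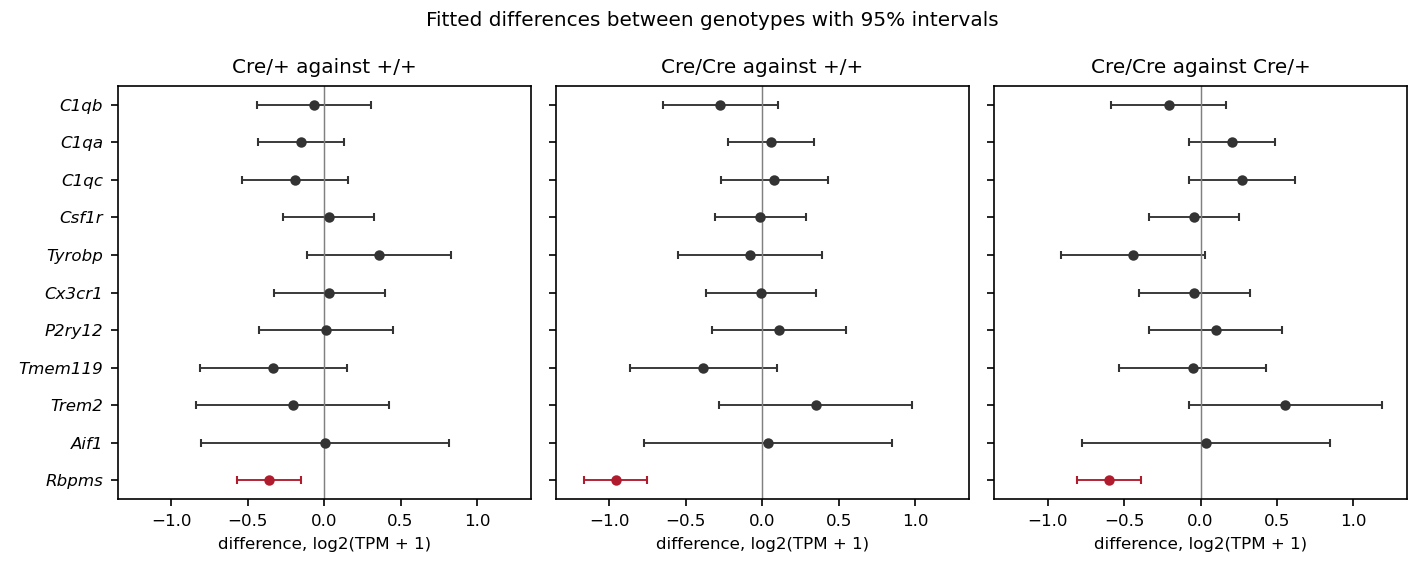
Fitted difference between genotypes on the log2(TPM + 1) scale (horizontal axis) for each of the 10 genes and for Rbpms, in the 3 contrasts. Points are limma estimates and lines their 95% intervals. All intervals of the 10 genes include 0, and those of Trem2 and Aif1 are the widest, whereas Rbpms stands at -0.36, -0.96 and -0.60.

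The 10 genes were low in whole retina, which is mostly photoreceptors. The order of mean TPM over 9 libraries was C1qb (10.4), C1qa (9.70), C1qc (6.85), Csf1r (6.20), Tyrobp (5.43), Cx3cr1 (3.65), P2ry12 (3.09), Tmem119 (2.24), Trem2 (2.14) and Aif1 (1.05), whereas the median of all genes tested was 26.5 TPM. Of the genes tested, 70.9% had a higher mean than C1qb and 99.7% a higher mean than Aif1. In an exact sign-flip permutation test of neighbours in this order, C1qa stood above C1qc, Tyrobp above Cx3cr1 and Trem2 above Aif1, each in 8 of 9 libraries (adjusted p = 0.0351 each, over 9 pairs). The other 6 neighbours did not differ beyond their spread (adjusted p = 0.105 to 0.766).

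Other microglial genes, taken from lists of known markers, likewise held no call. Of 15 genes of the homeostatic state, 11 were tested and 0 were called in any contrast, with medians of 0.03 in Cre/+ and -0.09 in Cre/Cre. Among the most abundant were Gas6 (224 TPM), which encodes a ligand of MERTK, and Tgfbr1 (24.9 TPM), a receptor for TGF-beta, and both are also made by other retinal cells. Of 20 genes of the wider myeloid lineage, 11 were tested and 0 called, with medians of -0.05 and -0.12. Their abundant transcripts included Ctss (18.8 TPM), encoding the lysosomal protease cathepsin S, and Laptm5 (4.05 TPM), a lysosomal membrane protein of blood cells.

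Of 17 genes of the disease-associated state, which microglia enter around dying neurons, 13 were tested and 0 called, with medians of 0.03 and -0.04. Its most abundant genes, Apoe (1181 TPM), Ctsd (405.8 TPM) and Ctsb (230.8 TPM), encode a lipid carrier and lysosomal proteases that other retinal cells also make. Before adjustment alone, Apoe at -0.22 (adjusted p = 0.440) and Lpl, encoding lipoprotein lipase, at 0.30 (adjusted p = 0.404) passed the threshold in Cre/+. The 4 genes of this list under the limit for testing were Cst7, Itgax, Clec7a and Ccl6, at 0.0450 to 0.451 TPM on average. Others, such as Axl (7.98 TPM), Gpnmb (2.18 TPM) and Lgals3 (1.78 TPM), stood in the range of the 10 genes.

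Signals between neurons or glia and microglia were read from 9 genes, most of them ligands, with the receptors Sirpa and Cd200r1 among them. Of these 9 genes 8 were tested and 0 called, with medians of 0.02 and -0.02. Cx3cl1, the ligand of CX3CR1, was at 86.9 ± 4.02 TPM in +/+, 82.3 ± 3.61 TPM in Cre/+ and 78.6 ± 3.61 TPM in Cre/Cre (SD, n = 3 each), with differences of -0.08 (SE 0.07, adjusted p = 0.710) and -0.14 (SE 0.07, adjusted p = 0.768). Of the CSF1R ligands, Il34 stood at 10.9 TPM and Csf1 at 4.09 TPM on average, with Cre/Cre differences of -0.01 (SE 0.13, adjusted p = 0.995) and -0.03 (SE 0.18, adjusted p = 0.991). Sirpa (135.7 TPM), Cx3cl1 and Cd47 (67.7 TPM), the last encoding the "do not eat me" ligand of SIRPA, were the highest of the list.

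Beyond C1q, 10 genes of the classical and lectin pathways were examined. Of these, 5 were tested and 0 called, the lectins Mbl1 and Mbl2 were listed at 0 in all 9 libraries, and the medians were -0.08 and -0.30. The highest were C4b (7.73 TPM), C3 (1.84 TPM), the component on which all pathways converge, and C1s1 (1.78 TPM), which encodes the protease C1s. C1s1 was at 2.10 ± 0.238 TPM in +/+ and 1.29 ± 0.310 TPM in Cre/Cre (SD, n = 3 each), a difference of -0.44 (SE 0.20, adjusted p = 0.704) that passed before adjustment alone. Of 10 genes of the alternative and terminal pathways 3 were tested and 0 called (medians 0.02 and -0.08), namely Cfp (34.0 TPM), encoding properdin, C8g (8.52 TPM) and Cfb (6.23 TPM). The pore component C9 averaged 0.0180 TPM.

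Complement regulators were the abundant arm. Of 12 genes 10 were tested and 0 called, with medians of 0.01 and -0.07, and Vtn (1218 TPM), Clu (702 TPM) and Cd59a (69.6 TPM), all of which restrain the terminal complex, led the list. Before adjustment alone, Sez6, which encodes a neuronal protein with complement control domains, passed at -0.22 in Cre/+ (adjusted p = 0.384), and Cfi, which encodes the protease factor I, at -0.64 in Cre/Cre (adjusted p = 0.664). Of 9 genes listed as complement receptors, not all of them dedicated to complement, 4 were tested and 0 called, with medians of 0.01 and -0.05. The highest were Calr (558.5 TPM), Lrp1 (48.6 TPM) and Megf10 (15.1 TPM), and the anaphylatoxin receptors C3ar1 and C5ar1 averaged 0.246 and 0.0464 TPM.

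**Figure D5:**
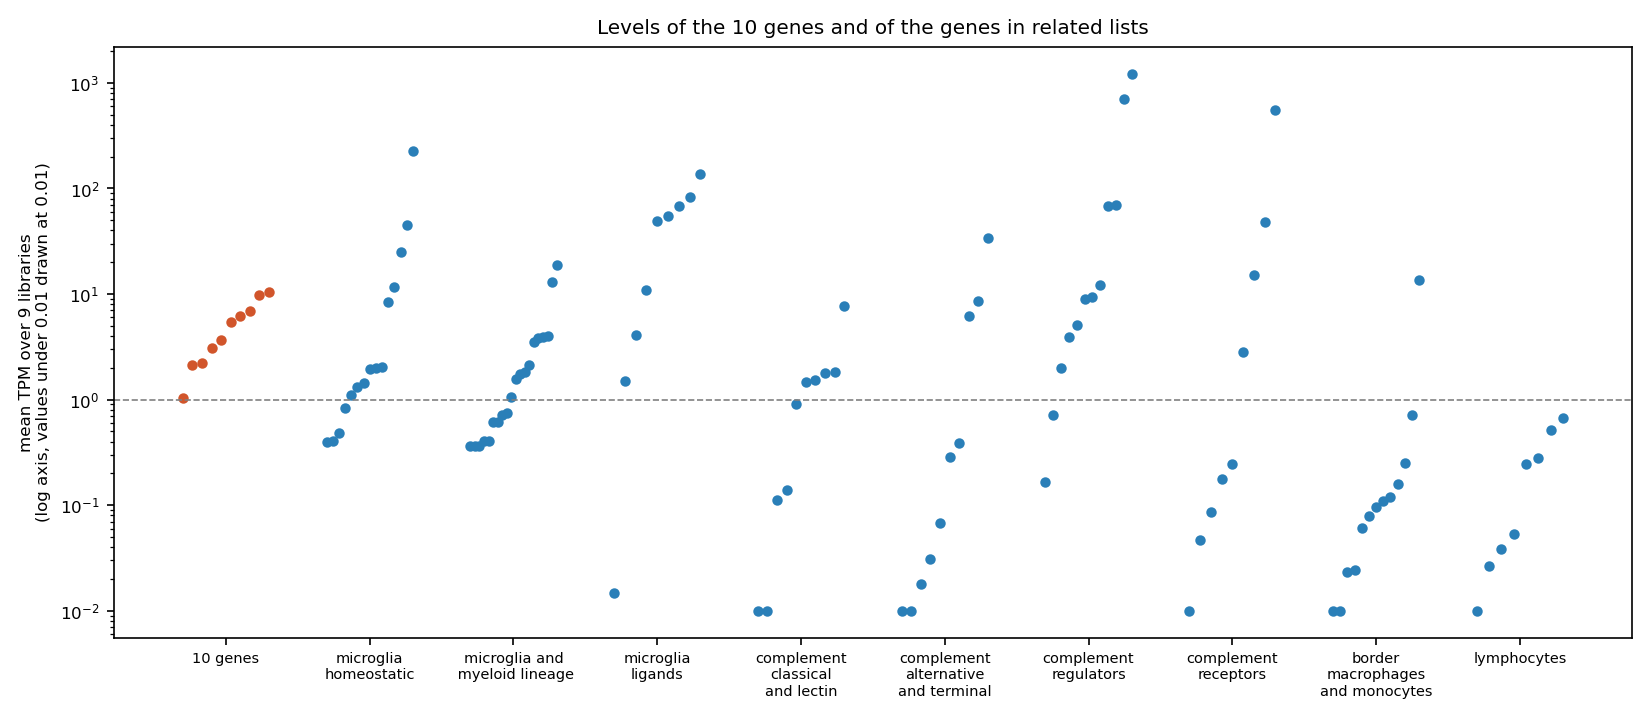
Mean TPM over the 9 libraries (vertical axis, log scale) of the 10 genes and of every gene in 9 related lists (horizontal axis), each point a gene, ordered within its list. The dashed line marks 1 TPM, the limit above which a gene was tested. The 10 genes lie between 1.05 and 10.4 TPM, in the list of ligands, which also holds 2 receptors, 1 of 9 genes lies under the line, and all 8 lymphocyte genes do.

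Most markers of other cells that could carry these transcripts averaged under 1 TPM, but so did part of the myeloid lineage list. Of its 20 genes, 9 averaged under 1 TPM and 11 did not. Among the 9 were Spi1 (0.62 TPM), Ptprc (0.41 TPM), Adgre1 (0.62 TPM) and Itgb2 (0.72 TPM). Low levels therefore do not set the other cells apart from microglia, and the source of the transcripts was not tested. Of 13 markers of border macrophages and monocytes, 12 averaged under 1 TPM, with Mrc1 at 0.110 TPM, Cd163 at 0.0241 TPM and Ccr2 at 0.0234 TPM, and Chil3 and S100a8 at 0 in all libraries. The list summed to 14.4 to 17.0 TPM in +/+, 15.8 to 17.6 TPM in Cre/+ and 11.3 to 16.7 TPM in Cre/Cre, nearly all of it Lyve1 (13.5 TPM), which lymphatic endothelium also makes and which stood at -0.32 in Cre/Cre (adjusted p = 0.671). The 8 lymphocyte markers summed to 1.36 to 2.89 TPM in +/+, 1.56 to 2.42 TPM in Cre/+ and 1.28 to 1.91 TPM in Cre/Cre, and none was tested.

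Red blood cell transcripts summed to 173.6 to 268.6 TPM in +/+, 146.2 to 171.5 TPM in Cre/+ and 253.3 to 464 TPM in Cre/Cre, and among all 111 list genes tested Hbb-bt, a beta-globin gene with near-identical copies between which reads may be split, was the only call in Cre/+ (adjusted p = 0.00256) and between Cre/Cre and Cre/+ (adjusted p = 0.000448). It averaged 11.04 TPM in +/+ and 18.9 TPM in Cre/Cre and was listed at 0 in all 3 Cre/+ libraries, so the fitted difference depends on the pseudocount and no fold is given. The number of calls in Cre/+ was 0 without Cre/+ replicate 1, without Cre/+ replicate 2 and with FPKM. Endothelial markers summed to 173.8 to 186.3 TPM, 162.3 to 182.1 TPM and 146.7 to 165.4 TPM in +/+, Cre/+ and Cre/Cre. All 6 were tested and 0 called, with medians of 0.06 in Cre/+ and -0.07 in Cre/Cre. Kdr, the highest at 104.1 TPM on average, stood at -0.29 in Cre/Cre (SE 0.10, adjusted p = 0.624) and passed before adjustment alone. In Cre/Cre, Cldn5 (0.09) and Pecam1 (0.08) were above 0, and Tek (-0.03), Esam (-0.11) and Cdh5 (-0.14) below. The part of blood or vessels in the values of the 10 genes was not tested.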

How the data were processed

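RNA of 9 pairs of retinas, 3 per genotype, was sequenced by the authors with a strand-specific poly(A) protocol and paired reads of 150 bases. According to the study's methods and the submitters' processing notes, reads were checked with FastQC, trimmed with Trimmomatic, aligned to mm10 with HISAT2 and sorted with SAMtools, StringTie gave a table of gene levels per library, and DESeq2 was named for the authors' comparisons. The versions and the gene annotation are not given in the sources used here. The deposited tables hold coverage (reads per base), FPKM and TPM per gene, as the authors' StringTie run gave them, and no counts. A count model was therefore not used.

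Levels were summed over rows that share a gene name, which gave 25239 names. The 15198 genes whose TPM averaged 1 or more were tested with limma 3.58.1 (R 4.3.3) on log2(TPM + 1), with trend and robust prior, all 9 libraries in 1 model with 6 residual degrees of freedom, and Benjamini-Hochberg adjustment over all genes tested. Fold differences on this scale understate changes of low genes. The script was tested on simulated data. Nothing says that more than 1 library came from a mouse, and no pair of libraries was identical. Ratios within libraries, neighbours in level and correlations were tested by exact permutation in Python 3.11.15, two-sided. The number of fragments was approximated from the deposited coverage, a transcript length and 300 bases per fragment, and covers counting error only. The length was the shortest in a searched range that made coverage times length a whole number in every library with coverage. No such length was found for Csf1r and Aif1.

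The genes described, the 16 gene lists (171 genes, of which 111 were tested) and the tests were chosen with earlier results of these data known. Besides the 10 genes and Rbpms, the rule for genes to be named took the 3 most abundant tested genes of each list, those with an unadjusted limma p under 0.05 in Cre/+ or Cre/Cre against +/+, and the 5 genes whose pattern over libraries was most like that of the 10. Other genes of the lists that are named for their level or direction, or as ligands of the receptors, were chosen after their values were seen. Names for the Mueller glia, pigment epithelium, lens and retinal lists were left out. Some genes that the rule takes are not reported here. Alternatives were a pseudocount of 0.1, no filter, FPKM, median-ratio scaling, a block for the replicate number, a covariate for Xist, only the genotypes compared, no robust prior and each library left out. Promoter windows came from RefSeq (GRCm38.p6). No window was available for C1qa, Tmem119 or Tyrobp, and Csf1r was left out of the search.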

Additional observations from a re-analysis of the deposited data

How the results depend on the processing

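The count of 0 called among the 10 genes held in each contrast and in the slope under all alternatives and with each library left out, and the smallest adjusted p of any of them was 0.337 (Tyrobp in Cre/+, with only the genotypes compared). FPKM with the same filter dropped 4 of the 10 genes. Of 228 alternative fits of single differences 217 kept their direction and 11 did not. With Xist as a covariate, the difference became 0.095 for C1qb and -0.00465 for P2ry12 in Cre/+, 0.056 for C1qb, 0.18 for Cx3cr1, 0.089 for Csf1r and 0.26 for Tyrobp in Cre/Cre, and 0.056 for Cx3cr1 and 0.011 for Csf1r between Cre/Cre and Cre/+. Median-ratio scaling gave 0.013 for Cx3cr1 and 0.013 for Csf1r in Cre/Cre, and a pseudocount of 0.1 gave -0.48 for Aif1 in Cre/+. List genes called were 0 in Cre/+ with FPKM, and 2 between Cre/Cre and Cre/+ both with FPKM and with Xist as a covariate. The causes were not tested.

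With 1 library left out at a time, 233 of 270 differences kept their direction. Those that did not ranged, in Cre/+, from -0.18 to 0.049 for C1qb, -0.018 to 0.081 for Cx3cr1, -0.012 to 0.10 for Csf1r, -0.11 to 0.18 for P2ry12, -0.27 to 0.48 for Aif1 and -0.50 to 0.14 for Trem2. In Cre/Cre they ranged from -0.031 to 0.15 for C1qa, -0.085 to 0.20 for C1qc, -0.15 to 0.078 for Cx3cr1, -0.048 to 0.051 for Csf1r, -0.00591 to 0.25 for P2ry12, -0.17 to 0.35 for Aif1 and -0.33 to 0.12 for Tyrobp. Between Cre/Cre and Cre/+ they ranged from -0.18 to 0.045 for Cx3cr1, -0.071 to 0.22 for P2ry12, -0.24 to 0.083 for Tmem119 and -0.44 to 0.31 for Aif1. List genes called ranged from 0 to 1 in Cre/+ and from 1 to 2 between Cre/Cre and Cre/+. Against +/+, the Cre/Cre share of C1qb ranged from -10.2 to -2.80 percentage points, that of C1qc from -1.32 to 7.05 and the ratio of Trem2 to Tyrobp from -0.0693 (without Cre/Cre replicate 3) to 0.455. At an unadjusted p under 0.05, the largest number of differences passed without Cre/Cre replicate 2, namely 4: C1qb at -0.50 in Cre/Cre, and C1qb at -0.43, C1qc at 0.39 and Tyrobp at -0.69 against Cre/+. The Cre/Cre libraries left are then both low in Xist. Of 15198 genes, 1297 passed there in Cre/Cre and 1277 against Cre/+. Trem2 passed at 0.70 in Cre/Cre without +/+ replicate 2. Between Cre/Cre and Cre/+ it passed at 0.55 without +/+ replicate 1 or 2 and with only the genotypes compared. Tmem119 passed in Cre/Cre at -0.54 without +/+ replicate 3 and -0.57 without Cre/Cre replicate 3. Tyrobp passed against Cre/+ with FPKM (-0.33) and without Cre/+ replicate 3 (-0.54), and in Cre/+ with Xist as a covariate (0.53).

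Same-numbered libraries of different genotypes did not deviate together (correlations -0.116 to 0.128). Whether the replicate numbers mark a shared litter or preparation was not tested. With the number as a replicate block, 0 of the 10 genes and 1 list gene were called in each contrast. With 4.4 to 72.1 fragments per library in the 8 genes given such a number, small changes could not be seen. Csf1r and Aif1 had no such number, and the coverage of Aif1 was 0 in Cre/+ replicate 3.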

Other observations

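The genes whose pattern over the 9 libraries was most like that of the 10 genes, measured as the Pearson correlation with the mean of their standardised log2(TPM + 1), were Tmod4 (0.962), Pgc (0.939), Cwc25 (0.934), Ube2c (0.93) and Mrps23 (0.921). The points share their libraries, 15198 genes were searched, and without the 2 farthest libraries these values were 0.755 to 0.831. Tmod4, Pgc and Ube2c averaged 1.19, 3.75 and 1.20 TPM, and Cwc25 and Mrps23 30.9 and 50.6 TPM. The mean of the 10 genes was lowest in Cre/+ replicate 3 (-0.707 SD) and highest in Cre/Cre replicate 2 (0.415 SD).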
